A study of Mus musculus with 4 samples.

Results

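The matrix metalloproteinases (MMPs), the ADAM and ADAMTS proteases, the ADAMTS-like proteins and the tissue inhibitors of metalloproteinases (TIMPs) were compared between a pigmented and a non-pigmented line of cultured mouse melanocytes. The members were all genes whose symbol began with Mmp, Adam, Adamts or Adamtsl followed by a number, together with Timp1 to Timp4, and that had at least 1 probe set assigned to that symbol alone. This gave 70 of the 18193 genes with a symbol of their own on the array, represented by 124 of 34945 probe sets. RNA from the 2 lines was hybridised to 4 Affymetrix expression arrays, 2 of the pigmented line and 2 of the non-pigmented line. The pigmented line is given as wild type, with the point mutation of its tyrosinase gene corrected. The non-pigmented line is homozygous for that mutation. Both are melanocytes from skin on a Balb/c background, and both were grown in RPMI medium with fetal calf serum (FCS), 2-mercaptoethanol and the phorbol ester TPA (tetradecanoyl phorbol acetate). The labels do not say whether a line is a single clone, nor whether its 2 arrays came from separate cultures, so p-values here measure only how far these arrays spread, and that spread may be technical.

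Metalloproteinases use a zinc ion to cut proteins outside the cell. MMPs are made as inactive precursors and cleave collagens, laminins and other matrix proteins, ADAMs release the outer parts of membrane proteins such as growth factors and Notch, and ADAMTS enzymes cut proteoglycans and process procollagens. TIMPs block the active site of these enzymes. In skin, melanocytes rest on a basement membrane that contains collagens and laminins, and in the mouse the proteoglycanase gene Adamts20 is known from the belted mutant, in which melanoblasts fail to colonise part of the coat.

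The values are array signals in arbitrary units, scaled by the authors to a common level per array, and are given throughout for replicate 1 and then replicate 2 of a line. The labels give no replicate numbers, and those used here do not follow the dates in the titles. Pigmented replicate 1 shared its date with non-pigmented replicate 2, and pigmented replicate 2 with non-pigmented replicate 1. The median signal over all probe sets was 130 and 126 on the pigmented arrays and 111 and 99.7 on the non-pigmented arrays. In replicate 2 of both lines the control probe sets of Gapdh gave a 3′ to 5′ ratio of 16.8 (pigmented) and 20.2 (non-pigmented), against 0.864 and 0.903 in replicate 1, so replicate 2 of either line is called the low 5′ array here and replicate 1 the intact array. Tyr, the gene that carries the mutation, had signals of 17306 and 11698 in the pigmented line, against 214 and 67.2 in the non-pigmented line, which checks the labels in part since a point mutation need not change the RNA level. Of 10 melanocyte markers 8 were called higher in the pigmented line. The summed signals of the 10 were 132429 and 128597, against 14782 and 24626 in the non-pigmented line. The 2 that were not called enter these sums. They were Sox10, with 8602 and 10232 against 8268 and 8558, and Tyrp1, with 14188.5 and 17547.7 against 1426 and 9313. Of 4 Schwann cell markers on the array 2 were called lower, with summed signals of 2156 and 3219 against 19889 and 22854. Markers of fibroblasts (0 of 5 tested called, summed signals 1716 and 1714 against 885 and 1021), immune cells (0 of 5, 1509 and 1317 against 1465 and 3109), endothelium (0 of 1, 372 and 372 against 301 and 294), smooth muscle (0 of 1, 797 and 740 against 4031 and 1723) and keratinocytes (1 of 4, Krt10, lower, 453 and 460 against 872 and 838) completed the check, and no marker had a signal of 0. The part of these markers in the results was not tested, and in bulk RNA fewer cells of a type and less RNA per cell cannot be told apart.

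The family held strong differences in both directions. Among the metalloproteinases the gelatinase gene Mmp2 and the membrane-type gene Mmp16 were higher in the pigmented line, by 8.50-fold and 27.8-fold, as was the ADAMTS-like gene Adamtsl2, by 6.83-fold. The stromelysin gene Mmp3 and the protease gene Adam12 were lower in the pigmented line, by 10.4-fold and 10.7-fold. These folds are on the scale of log2(signal + 16), which understates the change of dim genes. The call required an adjusted p below 0.05 in limma, with Benjamini-Hochberg adjustment across the 12558 genes tested. Of the 70 members 39 were bright enough to be tested (a mean log2 value of at least 6.44, or a signal of 70.7), and 3 were called higher and 2 lower. Over all tested genes 3.36% were called, 1.33% higher and 2.03% lower. At an unadjusted p under 0.05 there were 14 members, against 13.8% of all tested genes. With no filter on dim genes 3 of the 70 were called, against 1.65% of all genes, and with a filter at the 60th percentile 3 of 22, against 3.27%.

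The median difference of the 39 tested members was -0.16 on the log2 scale, pigmented minus non-pigmented, and that of all tested genes 0.07. The median absolute difference was 0.82 in the family and 0.46 over all tested genes, and 15 of the 39 members differed by at least 1 on the log2 scale, against 20.2% of all tested genes. The arrays of the 2 lines did not overlap for 23 of the 39 members, 9 with the pigmented arrays above and 14 below, against 43.9% of all tested genes (24.4% above and 19.5% below). Since a member can pass the filter through the line in which it is bright, these counts describe the 39 and not the 70.

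**Figure D1:**
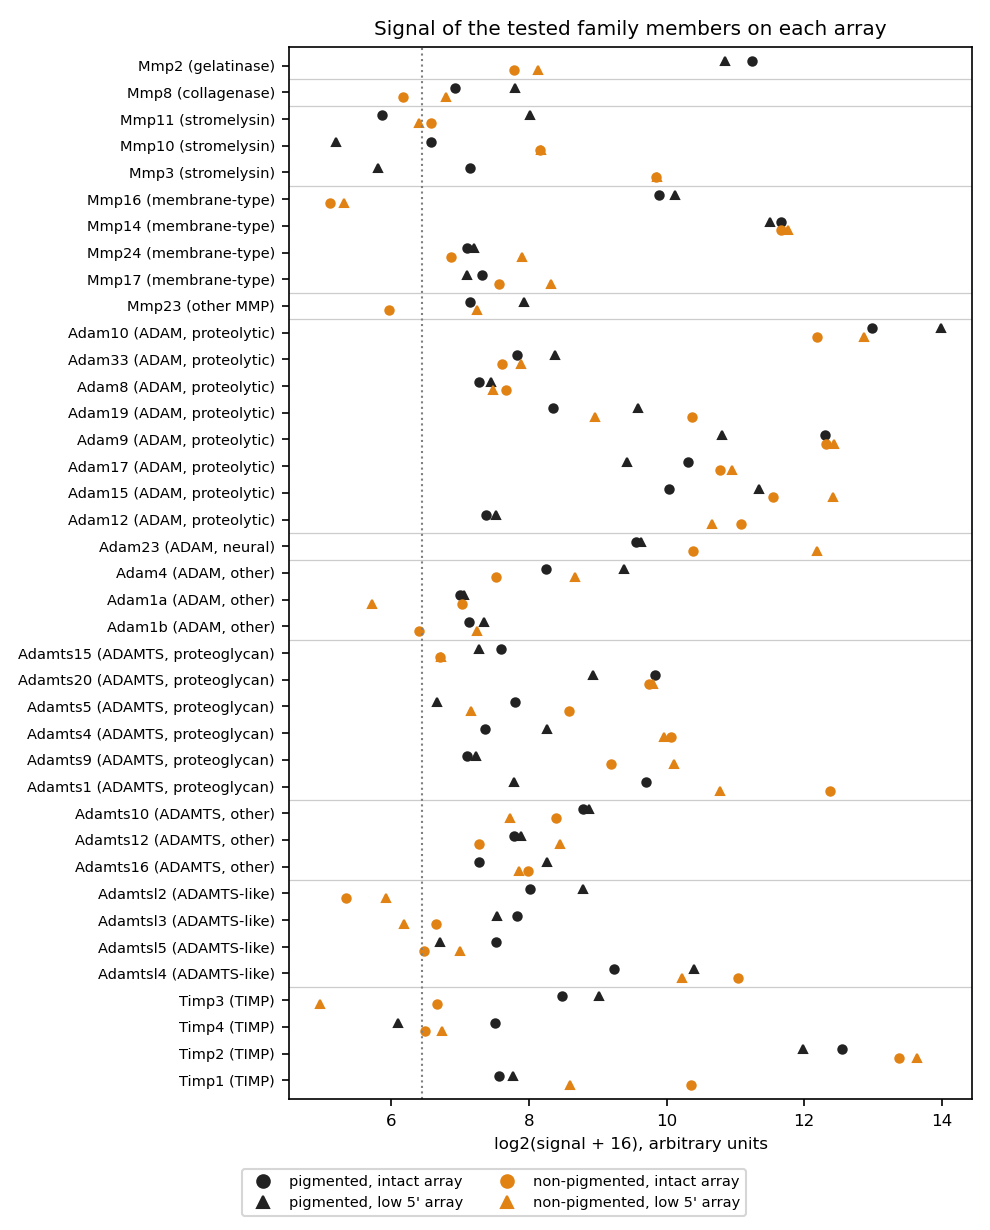
Signal of the 39 tested members on each array, as log2(signal + 16), grouped by class, with pigmented arrays in black above non-pigmented arrays in orange, circles for intact arrays and triangles for low 5′ arrays. The dotted line is the filter value of 6.44. The pigmented arrays of Mmp16 and Mmp2 lie far to the right of the non-pigmented ones, and those of Mmp3, Mmp10, Adam12, Adamts4 and Adamts9 far to the left.

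Gelatinases cut denatured collagen and the type IV collagen of basement membranes, and of the 2 on the array only Mmp2 was bright enough to be tested. Mmp2 (Entrez gene 17390) had signals of 2406 and 1824 in the pigmented line, against 205 and 264 in the non-pigmented line. Every pigmented array was above every non-pigmented array. The mean log2 value was 11.04 ± 0.28 in the pigmented and 7.96 ± 0.24 in the non-pigmented line (SD, n = 2 each), a log2 difference of 3.09 ± 0.43 (SE) with an adjusted p of 0.0189 by limma. The other probe set of Mmp2 gave a difference of 2.73, with signals of 2558 and 798 against 176 and 230. With non-pigmented replicate 1 or 2 left out, the adjusted p was 0.0948 or 0.0691, at differences of 2.92 and 3.26. Mmp9, the other gelatinase, was too dim to be tested, with signals of 56.3 and 44.1 in the pigmented line and 17.2 and 19.5 in the non-pigmented line.

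Membrane-type MMPs sit on the cell surface, where Mmp14 and Mmp16 are known to activate the precursor of Mmp2. Mmp16 (Entrez gene 17389) had signals of 928 and 1097 in the pigmented line, against 18.4 and 23.5 in the non-pigmented line. The non-pigmented values lie below the filter signal of 70.7, so the size of the difference depends on the pseudocount. The log2 difference was 4.80 ± 0.42 (SE) with an adjusted p of 0.00618 by limma, and it was 5.53 with a pseudocount of 1 and 3.66 with one of 64. All 4 probe sets of Mmp16 had positive differences, between 1.01 and 4.80, and with their mean in place of the brightest one the difference was 2.64 with an adjusted p of 0.0250. Differences within the intact and the low 5′ arrays were 4.78 and 4.82.

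Mmp14, by contrast, had signals of 3243 and 2888 in the pigmented line and 3234 and 3453 in the non-pigmented line. The 2 lines overlapped, with a log2 difference of -0.13 ± 0.37 (SE) and an adjusted p of 0.924 by limma. The other 2 membrane-type genes on the array were not called either. Mmp17, whose product is tied to the membrane by a lipid anchor, had a difference of -0.73 ± 0.47 and an adjusted p of 0.585, and Mmp24 one of -0.23.

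The stromelysins Mmp3 and Mmp10 are secreted enzymes with a broad range of matrix substrates that also activate other MMPs. Their genes lie in a row of MMP genes on mouse chromosome 9. The row holds 10 protein-coding genes in the RefSeq annotation, of which 9 were members and Mmp27 was not analysed here, in the order Mmp13, Mmp12, Mmp1b, Mmp3, Mmp1a, Mmp10, Mmp8, Mmp27, Mmp20 and Mmp7. Of the 9, Mmp3, Mmp10 and Mmp8 were tested and the other 6 were too dim. Promoters of this group are the textbook case of the TPA-responsive element, the site bound by AP-1 (Fos and Jun) proteins, and the medium of both lines contained TPA. The start-site windows of Mmp3 (chr9:7445572-7445871), Mmp10 (chr9:7502092-7502391), Mmp13 (chr9:7272264-7272563) and Mmp8 (chr9:7558179-7558478) are shown because 3 of them carry this element and Mmp8 does not. They come from RefSeq, build GRCm38.p6, plus strand, from 250 bases before the annotated start to 50 bases after it, with AP-1 letters (TGANTCA, either strand) and TATAAA on the gene's own strand in capitals.
Mmp3: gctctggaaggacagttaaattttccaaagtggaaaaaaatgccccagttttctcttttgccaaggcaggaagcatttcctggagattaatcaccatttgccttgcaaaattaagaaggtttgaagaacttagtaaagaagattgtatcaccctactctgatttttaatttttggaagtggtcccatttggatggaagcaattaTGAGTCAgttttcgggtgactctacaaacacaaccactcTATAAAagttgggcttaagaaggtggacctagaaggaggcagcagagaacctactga
Mmp10: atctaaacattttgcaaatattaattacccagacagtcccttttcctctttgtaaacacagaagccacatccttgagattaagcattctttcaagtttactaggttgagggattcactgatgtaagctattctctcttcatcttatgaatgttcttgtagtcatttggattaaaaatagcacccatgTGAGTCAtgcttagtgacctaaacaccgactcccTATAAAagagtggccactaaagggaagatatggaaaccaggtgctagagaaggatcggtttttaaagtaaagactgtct
Mmp13: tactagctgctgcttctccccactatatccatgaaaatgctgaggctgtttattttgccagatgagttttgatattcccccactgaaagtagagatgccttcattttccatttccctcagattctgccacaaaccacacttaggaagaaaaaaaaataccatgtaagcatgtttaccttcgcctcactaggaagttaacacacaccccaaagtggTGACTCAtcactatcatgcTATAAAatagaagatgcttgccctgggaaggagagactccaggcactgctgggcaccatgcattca
Mmp8: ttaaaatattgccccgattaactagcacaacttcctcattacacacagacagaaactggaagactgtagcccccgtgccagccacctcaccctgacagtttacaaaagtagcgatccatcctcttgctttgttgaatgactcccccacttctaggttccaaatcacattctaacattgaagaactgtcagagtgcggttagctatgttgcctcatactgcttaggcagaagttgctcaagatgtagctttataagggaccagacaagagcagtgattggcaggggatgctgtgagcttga

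In these windows TGAGTCA began 46 bases before the start of Mmp3 and 63 bases before that of Mmp10, and TGACTCA began 35 bases before that of Mmp13. The window of Mmp8 held neither set of letters. Of the 9 members in the row 8 had TGANTCA in a window, Mmp8 being the exception, against 7.81% of all 32851 windows, and the same 8 had TATAAA, against 8.32%. In the whole family 41 of the 70 members had a window, with 46 windows in all, and Mmp2, Mmp16 and Adam12 had none. Of the 46 windows 11 held TGANTCA. The other 3 belonged to Adam19, Adam1b and Adam25. The 2 motifs do not overlap each other in the windows shown, and a match of letters is no measure of binding.

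Mmp3 (Entrez gene 17392) had signals of 125 and 39.9 in the pigmented line, against 905 and 913 in the non-pigmented line. Both pigmented arrays were far below the non-pigmented ones, which nearly coincided. The log2 difference was -3.38 ± 0.55 (SE) with an adjusted p of 0.0316 by limma. The adjusted p was 0.0777 or 0.0810 with non-pigmented replicate 1 or 2 left out, and 0.0600 with no filter on dim genes, and without pigmented replicate 1 it was 0.00210. The gene has 1 probe set, so no other probe set bears on it.

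Mmp10 showed the same order of arrays without passing the test. Its signals were 79.2 and 20.5 in the pigmented line, against 270.0 and 272 in the non-pigmented line. It differed by -2.28 ± 0.58 (SE) on the log2 scale, at an adjusted p of 0.120 by limma. Mmp10 was not called in 15 of 16 alternatives, with adjusted p-values up to 0.339, and was called without pigmented replicate 1 (0.0145). The difference was -1.59 without pigmented replicate 2. Mmp8, the collagenase of neutrophils, had signals of 106 and 205 in the pigmented line and 56.2 and 95.4 in the non-pigmented line, which did not overlap, and an adjusted p of 0.556. Mmp13, a collagenase known from cartilage and bone, had 36.6 and 52.7 in the pigmented line and 67.8 and 59.9 in the non-pigmented line and was too dim to be tested. Mmp11, which is grouped with the stromelysins by name, had a difference of 0.45 with overlapping arrays, and Mmp23 had one of 0.94 ± 0.60 with an adjusted p of 0.589.

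**Figure D2:**
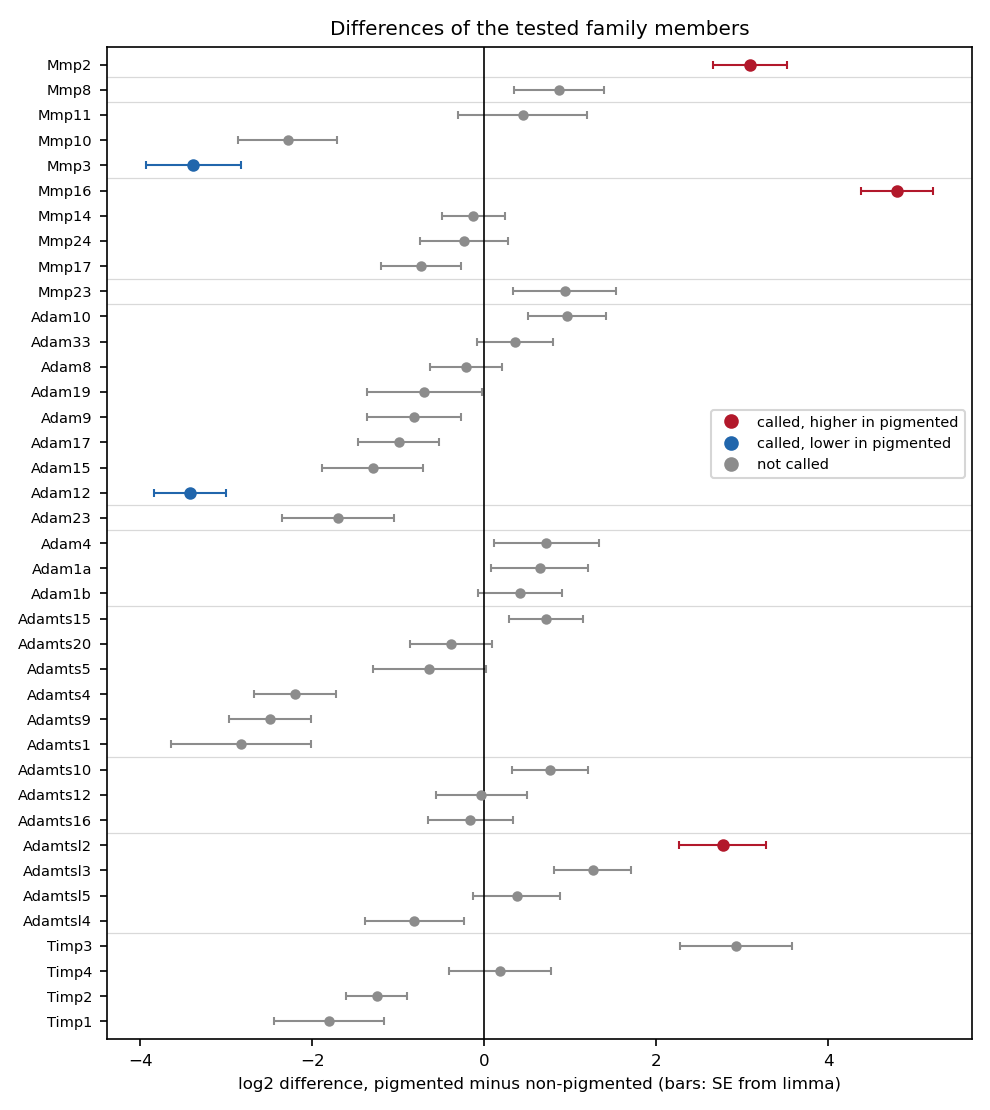
Log2 difference, pigmented minus non-pigmented, of the 39 tested members in the same order of classes, with bars for the standard error from limma. Mmp2, Mmp16 and Adamtsl2 (red) were called higher, Mmp3 and Adam12 (blue) were called lower, and the 34 grey members were not called.

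Of 9 proteolytic ADAMs of somatic tissues 8 were tested, and Adam12 was called. Adam12, also known as meltrin alpha and described in muscle, fat and growth factor shedding, had signals of 150 and 167 in the pigmented line, against 2142 and 1602 in the non-pigmented line. The 2 pigmented arrays lay close together and far below both non-pigmented arrays. Adam12 differed by -3.42 ± 0.42 (SE) on the log2 scale with an adjusted p of 0.0131 by limma. The other probe set of Adam12 gave -0.79, with 139 and 106 against 601 and 75.4, so that its dimmest array was the low 5′ array of the non-pigmented line. With the mean of both probe sets the difference was -2.10 and the adjusted p 0.154.

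The sheddases Adam10 and Adam17 had differences of opposite sign, neither past the test. Adam10, which cuts Notch receptors and the amyloid precursor protein, had signals of 8131 and 16239 in the pigmented line and 4630 and 7495 in the non-pigmented line. The lines did not overlap, the log2 difference was 0.96 ± 0.46 (SE), the adjusted p was 0.444 and all 4 probe sets had the same sign, between 0.77 and 1.67. The Adam10 difference was 1.81 and 0.12 within the 2 dates, and it lay between 0.46 (without pigmented replicate 2) and 1.46 (without pigmented replicate 1) when single arrays were left out. Adam17, which releases tumour necrosis factor and ligands of the EGF receptor, had 1252 and 674 in the pigmented line and 1739 and 1965 in the non-pigmented line, which is 1.99-fold lower in the pigmented line, with an adjusted p of 0.449. Its 3 probe sets ranged from -1.37 to 0.06.

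Adam15, a protease with an integrin-binding motif, had a log2 difference of -1.30 ± 0.58 (adjusted p of 0.414) and Adam9, a widely expressed sheddase, one of -0.82 ± 0.55 (adjusted p of 0.608). For Adam9 the pigmented arrays had signals of 5011 and 1781 and the non-pigmented arrays 5062 and 5528, and the difference was -0.01 within the intact arrays and -1.63 within the low 5′ arrays. For Adam15 it was -0.64 without pigmented replicate 1, -1.96 without pigmented replicate 2 and -0.86 without non-pigmented replicate 2. The 4 probe sets of Adam15, all past the filter, disagreed in sign and ranged from -1.58 to 0.46, with 3 of the 4 negative. Adam23, a neural adhesion protein without an active site, had 738 and 774 in the pigmented line and 1324 and 4660 in the non-pigmented line, with a difference of -1.70 ± 0.65 at an adjusted p of 0.317. Without non-pigmented replicate 1 it was -2.60, and without non-pigmented replicate 2 it was -0.80. All 3 of its probe sets were lower in the pigmented line. Of 16 ADAM genes known mainly from the reproductive tract or little studied, 3 were bright enough to be tested. Of these, 0 were called by limma and 0 had an unadjusted p below 0.05, against 3.36% and 13.8% of all tested genes. With 3 genes these counts cannot be told from those shares. Adam4, among these 3, had a difference of 0.72 with overlapping arrays.

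Among the ADAMTS enzymes that cut proteoglycans such as versican and aggrecan, Adamts1, Adamts4 and Adamts9 were low in the pigmented arrays but none was called. Adamts9 had signals of 120 and 133 in the pigmented line, against 566 and 1092 in the non-pigmented line. This is a log2 difference of -2.49 ± 0.48 (SE), at an adjusted p of 0.0532 by limma. The adjusted p was 0.0452 after quantile normalization, 0.0442 after centring on the median, and 0.0490 or 0.0406 without pigmented replicate 1 or 2. It was 0.0658 or 0.244 without non-pigmented replicate 1 or 2, and 0.175 with the mean of its 3 probe sets, at a difference of -1.83. The other probe set of Adamts9 past the filter overlapped between the lines and gave -0.63. Adamts4 had signals of 148 and 292 in the pigmented line and 1053 and 977 in the non-pigmented line, which differed by -2.20 ± 0.48 at an adjusted p of 0.0777. For Adamts4 the adjusted p was 0.0243 without pigmented replicate 2, 0.128 without pigmented replicate 1, and 0.263 or 0.232 without non-pigmented replicate 1 or 2. Its other probe set had 21.5 and 22.0 against 485 and 859, a difference of -4.13, and passed when each probe set was tested on its own (adjusted p of 0.0237, with 1.73% of 22341 probe sets called). With the mean of both probe sets the difference was -3.17 and Adamts4 was called (adjusted p of 0.0151 by limma, with 3.11% of all tested genes called).

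Adamts1 had signals of 819 and 204 in the pigmented line and 5275 and 1743 in the non-pigmented line. In both lines the low 5′ array gave the lower signal, and within the intact and the low 5′ arrays the log2 differences were -2.66 and -3.001. Without pigmented replicate 2 the difference was -1.87, and within the 2 dates it was -4.59 and -1.08. The difference of -2.83 ± 0.81 (SE) had an adjusted p of 0.172 by limma, which became 0.00906 when the integrity pair was a block. In that fit Adamts4 and Adamts9 also passed (adjusted p of 0.0345 and 0.0231), while 7.04% of all tested genes were called. Adamts5 differed by -0.64 and Adamts15 by 0.72, with adjusted p-values of 0.769 and 0.558. Adamts20, named here after its value was seen because of the belted mutant, had 893 and 473 in the pigmented line and 841 and 874 in the non-pigmented line, and its adjusted p was 0.809. Adamts10, which binds fibrillin, had a difference of 0.77 and an adjusted p of 0.537, and the other 2 tested ADAMTS genes, Adamts12 and Adamts16, overlapped between the lines.

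ADAMTS-like proteins resemble the non-catalytic parts of ADAMTS enzymes and bind microfibrils. Adamtsl2 had signals of 243 and 425 in the pigmented line, against 24.6 and 44.4 in the non-pigmented line, with both pigmented arrays above both non-pigmented ones. The log2 difference was 2.77 ± 0.50 (SE) with an adjusted p of 0.0431 by limma. The non-pigmented signals lie below the filter signal of 70.7, so the size of this difference too depends on the pseudocount, at 3.24 with one of 1 and 1.98 with one of 64. The call was close to the threshold. It was lost with pigmented replicate 2 (adjusted p of 0.0777), non-pigmented replicate 1 (0.162) or non-pigmented replicate 2 (0.0820) left out, and with a pseudocount of 1 (0.0519), without a filter (0.0910), after centring on the median (0.0612), after quantile normalization (0.0551) or with each probe set on its own (0.0845). Adamtsl3 had 210 and 170 in the pigmented line and 83.8 and 56.9 in the non-pigmented line, which differed by 1.26 ± 0.45 at an adjusted p of 0.277, and Adamtsl4 had a difference of -0.81 with overlapping arrays.

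Of the 4 TIMP genes 0 were called by limma, against 3.36% of all tested genes. An unadjusted p below 0.05 was reached by 3 of the 4, against 13.8% of all tested genes. Timp3, the matrix-bound inhibitor that also blocks ADAM17 and several ADAMTS enzymes, had signals of 342 and 501 in the pigmented line, against 85.6 and 15.3 in the non-pigmented line. The log2 difference was 2.93 ± 0.65 (SE) with an adjusted p of 0.0841 by limma, which became 0.0346 when the date in the titles was a block (6 members called, against 3.12% of all tested genes). All 4 probe sets of Timp3 had positive differences, between 0.26 and 3.18. With a pseudocount of 1 another of them had the highest mean, and the difference was then 0.29 with an adjusted p of 0.862. With the mean of the 4 it was 1.94. Left out in turn, pigmented replicate 1 (0.0336) and non-pigmented replicate 1 (0.0297) gave adjusted p-values past the threshold, while pigmented replicate 2 (0.0911) and non-pigmented replicate 2 (0.244) did not.

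Timp1 and Timp2 had the opposite sign. Timp2, which inhibits MMPs and also links the precursor of Mmp2 to Mmp14 on the cell surface, had signals of 5986 and 4012 in the pigmented line, against 10672 and 12780 in the non-pigmented line. The log2 difference was -1.25 ± 0.35 (SE) with an adjusted p of 0.163, 5 of its 6 probe sets had negative differences, and the mean of the 6 differed by -0.70. Timp1, a secreted inhibitor induced by growth factors, had 174 and 202 in the pigmented line and 1287 and 372 in the non-pigmented line, which differed by -1.80 ± 0.64 at an adjusted p of 0.277, and by -0.93 without non-pigmented replicate 1. Timp4 overlapped between the lines, with a difference of 0.18 and an adjusted p of 0.933.

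**Figure D3:**
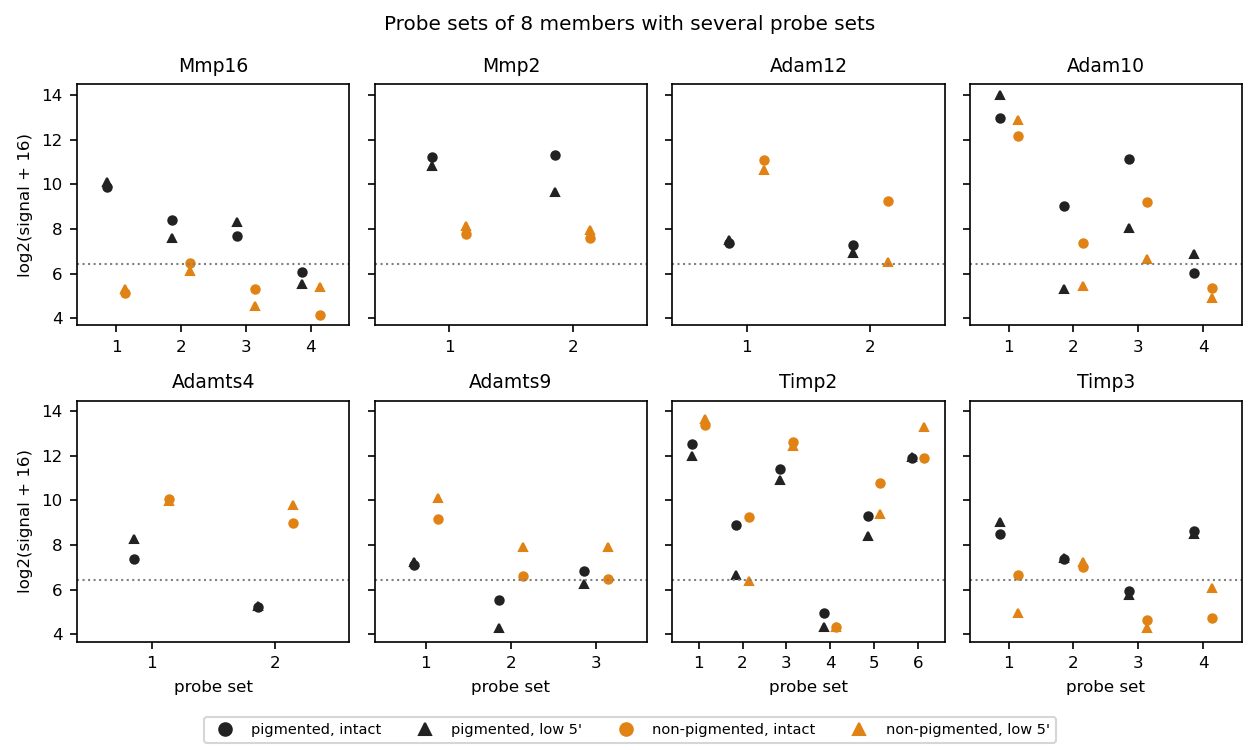
Signal, as log2(signal + 16), of each probe set of 8 members, with pigmented arrays (black) left of non-pigmented arrays (orange), circles for intact and triangles for low 5′ arrays, and a dotted line at 6.44. Probe set 1 stands for the gene in the tests and the others follow by name. All probe sets of Mmp16, Mmp2, Adam12, Adam10, Adamts4, Adamts9 and Timp3 have the mean of the pigmented arrays on 1 side. For Timp2 the 5 of 6 probe sets past the filter were lower in the pigmented line, and the remaining dim probe set was higher.

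The called members kept their direction within both dates in the titles and within both integrity pairs. This was fixed in advance, because their arrays did not overlap between the lines. Over all 39 tested members 28 had the same sign in both dates and 28 in both integrity pairs. Both counts include the 23 members whose arrays did not overlap, for which the sign could not differ. The share over all tested genes was not computed. Timp4 and Adamtsl4 were among the 11 whose sign differed between the integrity pairs, at 1.01 and -0.64 for Timp4 and -1.81 and 0.18 for Adamtsl4, with the intact arrays first. Timp1 and Timp3 kept their sign, but the size differed, at -2.78 and -0.83 for Timp1 and 1.81 and 4.05 for Timp3.

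**Figure D4:**
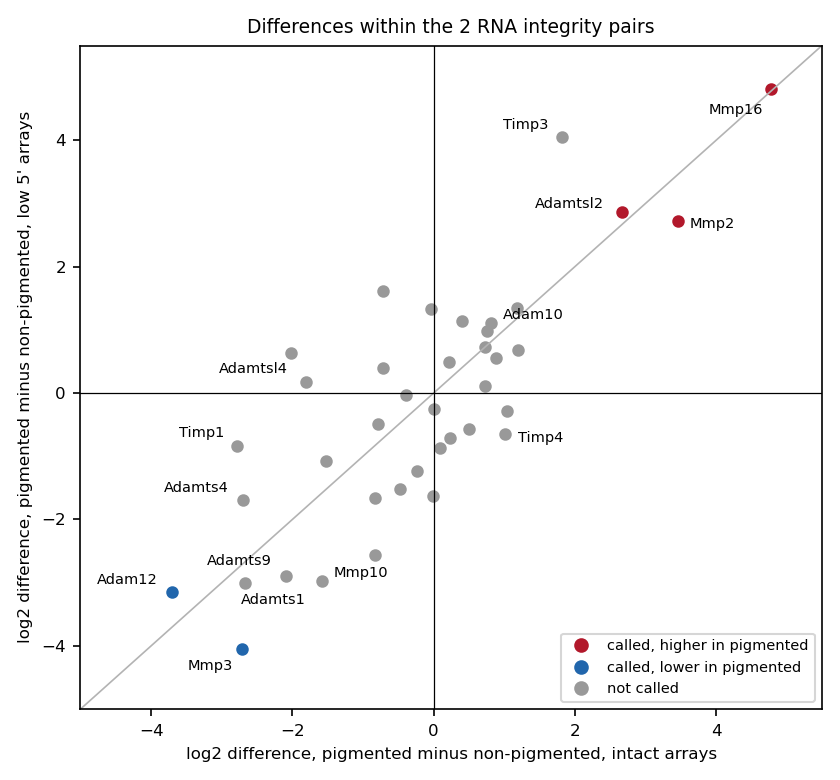
Log2 difference, pigmented minus non-pigmented, of the 39 tested members within the intact arrays (x axis) and within the low 5′ arrays (y axis), with the line of equal values. The 5 called members (red and blue) lie in the corners of equal sign, as they must when the lines do not overlap. Timp3 and Timp1 lie away from the line of equal values.

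Genes that act on or with these enzymes were given from 4 lists. Over all tested genes 3.36% were called, 1.33% higher and 2.03% lower, and the median difference was 0.07. Of 17 tested regulators 2 were higher and 3 lower. Tspan5 and Tspan10 were higher, with log2 differences of 3.03 ± 0.41 and 6.72 ± 0.58 (SE), and Tspan15 was lower, with a difference of -2.57 ± 0.45. All 3 belong to the tetraspanins known to escort Adam10. Tspan5 had signals of 2409 and 2753 in the pigmented line, against 304 and 297 in the non-pigmented line, and Tspan15 had 287 and 200 against 1780 and 1266. These 2 changed in opposite directions with no overlap between the lines. Tspan15 missed the threshold in the fit blocked by date, at 0.0908, and without pigmented replicate 2 (0.0651), non-pigmented replicate 1 (0.179) or non-pigmented replicate 2 (0.0989). Tspan5 missed it without non-pigmented replicate 1 (0.0749) or 2 (0.0869). Pcsk6, a convertase that activates precursors, differed by -4.10 ± 0.47, with 98.1 and 84.8 against 2436 and 1364. Lrp1, an endocytic receptor that clears MMPs, ADAMTS enzymes and TIMPs, differed by -5.04 ± 0.59, with 63.7 and 206 against 3837 and 4977. The median of the tested regulators was -0.36.

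Of 26 tested genes whose proteins are shed by Adam10 and Adam17, 2 were higher, the receptor genes Kit and Met. Only RNA was measured. Kit, with signals of 5086 and 3460 against 62.4 and 72.1, is also one of the melanocyte markers counted above. Met had 11109 and 11667 against 979 and 808. Lower were 3 of the 26. The 3 were the EGF receptor ligand gene Tgfa (difference -3.82 ± 0.61 with signals of 150 and 47.7 against 1063 and 1943), the receptor gene Mertk (-5.32 ± 0.51 with 49.9 and 86.7 against 2389 and 4478) and the adhesion gene L1cam, which missed the threshold in the fit blocked by date, at 0.178. The call of L1cam was lost in 11 of 17 alternatives, among them the fits without pigmented replicate 1 (0.0693), non-pigmented replicate 1 (0.224) or non-pigmented replicate 2 (0.335) and the mean of its probe sets (0.516). Tgfa lost its call in 4 of 17, with a difference of -1.17 and an adjusted p of 0.257 for the mean of its probe sets, 0.0507 with no filter, 0.0563 with each probe set on its own and 0.0810 without non-pigmented replicate 2. Met lost its call with the mean of its probe sets (0.0621). The median was -0.25. Of 13 tested matrix substrates 0 were higher and 5 lower, against 1.33% and 2.03% of all tested genes, with a median of -1.61. The 5 were Bcan, Col2a1, Col4a1, Fn1 and Bgn. At an unadjusted p below 0.05 there were 6 of the 13, against 13.8% of all tested genes. Col1a2, among these 6 and also one of the fibroblast markers, went the other way without being called. It differed by 2.11 ± 0.46 (SE) at an adjusted p of 0.0766 by limma. Its signals were 1222 and 1176 in the pigmented line and 200 and 348 in the non-pigmented line. Bcan, the proteoglycan brevican that Adamts4 cuts in the brain, had 164 and 64.1 in the pigmented line and 987 and 3679 in the non-pigmented line, at an adjusted p of 0.0474. With probe sets designed for 1 gene its difference was -1.92, at an adjusted p of 0.103. Col4a1 and Bcan were not called without non-pigmented replicate 2 (0.0526 and 0.0989), and Fn1 and Bgn were not called without either non-pigmented array. Of 11 tested AP-1 and Ets factors 0 were called by limma, and the median was -0.41. An unadjusted p below 0.05 was reached by 3 of the 11, against 13.8% of all tested genes. The 3 were Fosl2, at 2.28 ± 0.63, Jun, at -1.88 ± 0.60, and Etv5, at -4.35 ± 1.75, with adjusted p-values of 0.154, 0.219 and 0.347. Etv5 had signals of 2279 and 19.98 in the pigmented line and 5683 and 6036 in the non-pigmented line, and its difference was -1.31 within the intact arrays and -7.39 within the low 5′ arrays.

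The 31 members that were not tested had signals between 3.52 and 110 on the intact and 1.58 and 102 on the low 5′ pigmented array, against 2.26 and 112 and 3.31 and 137 on the non-pigmented arrays. They were 13 ADAM genes known mainly from the reproductive tract or little studied, 8 MMPs, 6 ADAMTS genes, Adam11, Adam22, Adam28 and Adamtsl1. The file holds no detection call, so a dim signal could not be told from background.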

How the data were processed

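RNA of 2 mouse melanocyte lines was measured on 4 Affymetrix arrays, 2 per line. The deposited file gives an intensity per probe set on a linear scale, made with Affymetrix Expression Console per the submitters' processing notes. Its version and summary algorithm are not given in the sources used here. The mean after trimming 2% at either end was 500 in each deposited column, which shows that the authors scaled each array. Of 45101 probe sets 64 were controls. Each gene was represented by its single-symbol probe set of highest mean log2 value, and genes under the 40th percentile of mean log2 value were left out, which left 12558. All 70 members matched RefSeq (GRCm38.p6) by Entrez number with 0 changed symbols.

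Lines were compared with limma 3.58.1 in R 4.3.3 (lmFit, eBayes with trend) on log2(signal + 16), two-sided, with Benjamini-Hochberg adjustment over all genes tested, and the code was tested on simulated data. Figures were drawn with matplotlib 3.10.9. With 2 arrays against 2 an exact permutation test cannot go below 0.333, and the number of arrays limits the precision. The titles give 2 dates, each shared by 1 array of either line, which pairs the arrays, although the deviations of same-date arrays correlated at -0.51 across genes. The crossed pairing is that of the RNA integrity pairs and was added as a block after seeing the data. With 2 arrays per line its correlation (0.51) is the same value with the sign reversed, not a second result. The members, lists, tests and classes were chosen with earlier results of these data known. Named were all called members, the others of smallest p up to 25, a set of well-known members, and called genes of the context lists. Further genes were named after their values were seen.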

Additional observations from a re-analysis of the deposited data

How the results depend on the processing

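The number of members called was 5 (3 higher, 2 lower) and stayed within 1.5 times of that under both other scalings, both other eBayes settings, the other probe set choices, other pseudocounts and the replicate block by title date. The balance turned to 2 higher and 3 lower under quantile normalization and under centring on the median, both with Adamtsl2 lost and Adamts9 gained. The block by date gave 6 called members with Timp3 added. The block by date changed no other call among the named members, and in the context lists it ended those of Tspan15 and L1cam. With no filter 3 of 70 members were called (2 higher, 1 lower), against 1.65% of 18193 genes, and with the filter at the 60th percentile 3 of 22 (1 higher, 2 lower), where Mmp16 and Adamtsl2 were no longer tested, against 3.27% of 9610 genes. With the integrity pair as a block, 8 members (3 higher, 5 lower) and 23 genes of the context lists were called, against 15 of these lists otherwise, and 7.04% of all tested genes. Leaving out each array in turn gave between 2 and 9 called members, with 1 to 4 higher and 1 to 5 lower, and 7 to 19 genes of the context lists. The counts moved with those over all genes. Without pigmented replicate 1 there were 9 members and 6.15% of all tested genes, without pigmented replicate 2 there were 6 and 4.52%, without non-pigmented replicate 1 there were 3 and 2.34%, and without non-pigmented replicate 2 there were 2 and 1.86%. The group left with a single array was then assumed to vary like the other. Adam12 and Mmp16 were called in each of these 4 fits.

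Of 464 comparisons of 28 named members with an alternative, 431 kept their direction and their side of the threshold, 15 lost the call, 14 gained it and 4 changed sign. The sign changed for Timp4 when arrays were centred on the median (-0.060) and among the fits without single arrays (-0.52 to 0.89), for Adamts5 among those fits (-1.36 to 0.079) and for Adamts10 with the mean of its probe sets (-0.044). None of these was called. Centring on the median moved the median difference of all tested genes to -0.18, against 0.07, and that of the family to -0.40, against -0.16. The cause of these changes was not tested. Signal over background limits the dim members.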

Other observations

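Some probe sets of the family gave much lower signals on the low 5′ array of both lines. Of 66 member probe sets past the filter, 7 were lower there by at least 1 on the log2 scale in both lines (10.6%, against 7.49% of all 22341 such probe sets). A probe set of Mmp14 had 788 on the intact and 31.6 on the low 5′ pigmented array, and 550.0 and 20.4 in the non-pigmented line, while the probe set that stood for the gene did not differ between the arrays in this way. A probe set of Timp2 had 462 and 85.1 in the pigmented line and 593 and 66.5 in the non-pigmented line. A probe set of Adam10 had 2223 and 251 in the pigmented line and 572 and 84.6 in the non-pigmented line, and its log2 difference between the lines was 1.67, against 0.96 for the probe set used. Where a probe set lies in its transcript was not analysed here.

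Windows around annotated starts were also searched for letters bound by MITF, a master regulator of pigment genes. TCATGTG on either strand was found in 1 of the 46 member windows (2.17%), that of Mmp12, against 3.77% of all windows. CACGTG was found in 4 of the 46 (8.70%), those of Adam10, Adam19, Adam6a and Mmp7, against 7.15%. Mmp2, Mmp16 and Adam12 had no window and were not searched.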
